A study of Mus musculus with 16 samples.

Results

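The 10 genes described here, Slc7a11, Gclc, Gclm, Gsr, Abcc1, Txnrd1, Srxn1, Nqo1, Hmox1 and Nfe2l2, encode the transcription factor NRF2 and proteins of the antioxidant and glutathione response that it is known to drive. All 10 are among the 13085 genes of the deposited table. They were chosen by symbol, because several of them were lower in NFAM1-/- than in NFAM1+/+ monocytes at 6 h. The genotype difference at 6 h is therefore given as a description without a test, and the questions were whether the libraries at 24 h and the remaining members showed the same direction, and how the genes changed with stimulus and time.

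RNA was sequenced from monocytes of C57BL/6 mice that were NFAM1+/+ or NFAM1-/-, the latter carrying a germline CRISPR-Cas9 deletion of exons 2 and 3 of Nfam1, an immunoreceptor gene with an activation motif in its cytoplasmic tail. The cells were cultured for 6 or 24 h with no addition or with IFN-γ and multimeric CD40L, which engages CD40, and this gives 8 groups of 2 libraries. The labels call the cells blood monocytes, whereas the methods describe an enrichment from bone marrow. The labels do not say which libraries came from separate mice or cultures. The study names fewer mice of each genotype than there are libraries, so read as a total some libraries share an animal, and which ones is not given. The tests treat libraries as independent, so the p-values measure the spread between libraries, and a difference between the cultures of 6 and 24 h cannot be told apart from time.

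The genotype labels conflict in 4 of the 8 libraries at 24 h. The titles name libraries 44 and 56 as NFAM1+/+ and libraries 46 and 58 as NFAM1-/-, and the genotype tags name the opposite. The titles and tags of the other 12 libraries name 1 genotype, among them libraries 43 and 55 as NFAM1-/- and libraries 45 and 57 as NFAM1+/+. Groups follow the titles here, genotype differences of the members at 24 h are also given by the tags and with the libraries whose labels agree, and the size of a stimulus or time difference does not depend on the choice, because both genotypes enter each side, whereas its error does.

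NRF2, encoded by Nfe2l2, is held at a low level by the adaptor Keap1, which presents it for degradation. When electrophiles or oxidants modify Keap1, NRF2 accumulates, pairs with small MAF proteins and binds antioxidant response elements near its target genes. Its control is therefore largely at the protein level, and the mRNA of its targets is commonly read as a sign of its activity. In monocytes and macrophages the response supplies glutathione and thioredoxin, degrades heme and limits inflammatory gene expression. Slc7a11 imports cystine, Gclc and Gclm are the catalytic and modifier subunits of the enzyme that makes the first step of glutathione synthesis, Gsr reduces oxidized glutathione, and Abcc1 exports glutathione conjugates. Txnrd1 reduces thioredoxin, Srxn1 repairs overoxidized peroxiredoxins, Nqo1 reduces quinones, and Hmox1 degrades heme.

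The promoters of the members are shown because the antioxidant response element is the sequence through which NRF2 is known to act. RefSeq promoters of GRCm38.p6, from 250 bases before to 50 after a start site, were available for 6 members with 8 promoters in all, and Gclc, Gsr, Abcc1 and Hmox1 had no entry. The core of the element, TGACNNNGC or TGAGNNNGC on either strand, was found in 5 of the 8 promoters, those of 5 of the 6 genes, against 27.8% of all 32851 promoters of the same length and 31.4% of the 11928 promoters of genes tested. Of the elements upstream of a start site, 1 is shown per gene, in the direction of the gene with the core in capitals.
Srxn1, chr2:152105464-152105502, plus strand, core starting 45 bases before the start: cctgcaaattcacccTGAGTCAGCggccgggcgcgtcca
Slc7a11, chr3:50443687-50443725, minus strand, core starting 97 bases before the start: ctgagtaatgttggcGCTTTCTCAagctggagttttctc
Gclm, chr3:122245408-122245446, plus strand, core starting 134 bases before the start: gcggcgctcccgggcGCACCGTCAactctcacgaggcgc
Txnrd1, chr10:82859099-82859137, plus strand, core starting 92 bases before the start: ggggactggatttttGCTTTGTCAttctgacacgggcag
Nfe2l2, chr2:75704880-75704913, minus strand, core starting 240 bases before the start: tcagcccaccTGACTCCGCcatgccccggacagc
The cores of Slc7a11, Gclm and Txnrd1 lie on the opposite strand, where they read TGAGAAAGC, TGACGGTGC and TGACAAAGC. The core of Srxn1 shown overlaps the AP-1 motif TGAGTCA, and the same promoter held a further upstream core, TGAGTCGGC, with its first base 158 bases before the start. The promoter of Nqo1 held neither form of the core in this window. These matches are descriptions of sequence and not sites of binding.

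The libraries held 48295939 to 88514341 reads on the listed genes, and the smallest count of a member was 234 reads, for Nqo1. The deposited log2 CPM, which scales counts to a library size set by the authors, used a size that differed by stimulus. At 6 h the reads made up 0.756 to 0.775 of that size without stimulus and 1.24 to 1.32 of it with stimulus, and at 24 h 0.776 to 0.788 and 0.970 to 0.997. When the totals of reads took the place of these sizes, the median stimulus effect over all genes tested moved from -0.13 to -0.86 on the log2 scale at 6 h and from 0.01 to -0.33 at 24 h. The use of read totals as library sizes is called own totals below. All 10 markers of monocytes were in the table, with a summed level of 8885 to 30831 CPM. Of other cell types, the summed levels reached 942 CPM for 10 neutrophil markers, 371 CPM for the 3 of 6 B cell markers in the table, 307 CPM for 7 dendritic cell markers and 6.81 CPM for the 2 of 8 T cell markers in the table. These sums moved with the stimulus. From unstimulated to stimulated libraries the monocyte sum went from 22939 to 25096 CPM down to 8975 to 10928 CPM at 6 h and from 26817 to 30831 CPM down to 8885 to 12132 CPM at 24 h, and the B cell sum went from 134 to 153 CPM up to 311 to 371 CPM at 6 h and from 127 to 198 CPM down to 34.5 to 42.4 CPM at 24 h. The monocyte marker Lyz2 alone went from 15690 to 17380 CPM down to 2667 to 4159 CPM at 6 h. Ly6c2, Fcgr1 and Spi1 were higher with the stimulus at both times, and the remaining monocyte markers were lower. Ighm made up most of the B cell sum, with 129 to 148 CPM without and 310 to 370 CPM with the stimulus at 6 h. Cd79a and Cd79b, the other B cell markers in the table, were lower with the stimulus at 6 h. The part of these markers in the stimulus effects on the members was not tested.

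Nfam1, counted over the whole gene and so also over exons that were not deleted, gives only a weak check of the genotype. Without stimulus at 6 h it stood at 432 and 408 CPM in NFAM1+/+ and at 299 and 321 CPM in NFAM1-/- libraries, and with stimulus at 133 and 129 against 135 and 127 CPM. At 24 h by title the values were 463 and 495 against 441 and 391 CPM without stimulus, and 271 and 252 against 201 and 223 CPM with it. None of these 4 differences passed an adjusted p of 0.05 (limma, Benjamini-Hochberg), with -0.44 (adjusted p = 0.0514), -0.01 (0.979), -0.20 (0.348) and -0.30 (0.0676) on the log2 scale. By tag the differences at 24 h were 0.04 and -0.02, and in the single pairs of libraries whose labels agree -0.17 and -0.33 (adjusted p = 0.999 and 0.690). Over both stimuli at 24 h Nfam1 passed as lower by title (-0.25 ± 0.06, adjusted p = 0.0472).

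**Figure D1:**
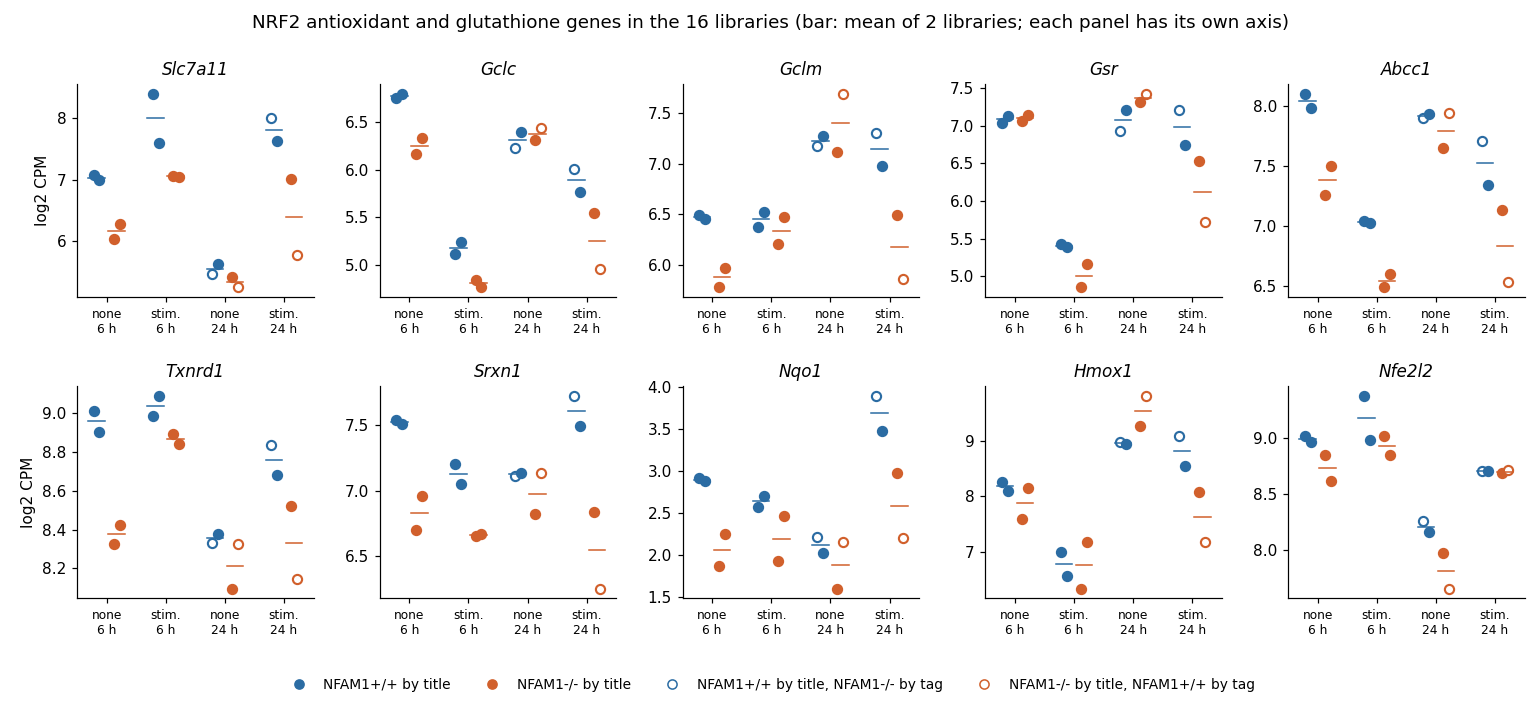
Level of each of the 10 genes in the 16 libraries. The vertical axis is log2 CPM with a separate range per gene, the horizontal axis gives stimulus and time, each point is 1 library, bars are means of 2 libraries, colour gives the genotype of the title and open points are the 4 libraries whose genotype tag differs. Gsr and Gclc fell with the stimulus at 6 h in each library, and the stimulated libraries at 24 h were spread widely for each gene except Nfe2l2.

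The first question was how the genes responded to IFN-γ plus CD40L at 6 h. Slc7a11 rose on the deposited scaling, whereas Gclc, Gsr and Abcc1 fell. Slc7a11 stood at 134 and 127 CPM in unstimulated NFAM1+/+ and at 65.9 and 77.6 CPM in unstimulated NFAM1-/- libraries, and at 336 and 194 CPM and 134 and 133 CPM in the corresponding stimulated libraries. The stimulated libraries were thus higher within each genotype, but library 1 of the unstimulated NFAM1+/+ group exceeded both stimulated NFAM1-/- libraries. The log2 fold change was 0.93 ± 0.22 (SE, 4 against 4 libraries, adjusted p = 0.00127, limma with Benjamini-Hochberg adjustment over 12782 genes), but 0.20 (adjusted p = 0.37) with own totals and 0.40 (adjusted p = 0.0971) with quantile normalization, where it did not pass. In bulk RNA fewer cells of a type and less RNA per cell cannot be told apart, here and in each result below.

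Gclc stood at 108, 111, 71.7 and 80.8 CPM without and at 34.6, 37.8, 28.7 and 27.2 CPM with the stimulus at 6 h. Every stimulated library was below every unstimulated one, and the log2 fold change was -1.52 ± 0.10 (adjusted p = 7.8e-09). Gsr, the glutathione reductase, had the largest fall among the members, from 132, 140.0, 134 and 141 CPM to 43.3, 41.7, 29.0 and 35.7 CPM, or -1.89 ± 0.15 (adjusted p = 3.08e-08). Abcc1 fell by 0.92 ± 0.12 on the log2 scale (adjusted p = 5.35e-06), also without overlap. Gclm, the modifier subunit that works beside Gclc, did not pass at this time on the deposited scaling. It was at 90.0, 87.6, 54.9 and 62.8 CPM without and at 83.0, 92.0, 74.0 and 88.6 CPM with the stimulus (log2 fold change 0.22 ± 0.14, adjusted p = 0.163), and the call and direction depended on the scaling, with -0.51 (adjusted p = 0.0038) for own totals, -0.09 for quantile normalization and 0.39 (adjusted p = 0.0199) for centring on medians.

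Hmox1, the heme oxygenase, fell from 306, 273, 193 and 283 CPM to 127, 94.2, 80.5 and 145 CPM, again with no overlap (log2 fold change -1.26 ± 0.23, adjusted p = 0.000153). Nqo1 did not pass on the deposited scaling, from 7.55, 7.35, 3.65 and 4.78 CPM to 5.96, 6.53, 3.79 and 5.51 CPM (-0.06 ± 0.20, adjusted p = 0.781), but passed as lower with own totals (-0.79, adjusted p = 0.0019). The falls of Gclc, Gsr, Abcc1 and Hmox1 held under own totals, quantile normalization and centring on medians, with log2 fold changes of -1.35 to -2.25, -1.72 to -2.62, -0.76 to -1.65 and -1.09 to -1.99. The remaining members moved less and depended on the scaling. Srxn1 fell by 0.28 ± 0.11 on the log2 scale (adjusted p = 0.0316), a call that was lost without any 1 of libraries 1, 2, 4, 10, 11 and 12 (adjusted p up to 0.124) and with centring on medians (-0.11, adjusted p = 0.36), and it stood at -1.01 with own totals. Txnrd1 rose by 0.28 ± 0.08 (adjusted p = 0.00445) with the deposited scaling but fell by 0.45 with own totals and by 0.68 with quantile normalization. Nfe2l2 differed by 0.19 ± 0.09 (adjusted p = 0.0637) and fell by 0.54 and by 0.80 under the same 2 settings. In all, 2 members passed as higher, where 35% of all genes did, and 5 as lower, where 43.3% did. These shares were near the background. With own totals 0 members passed as higher and 9 as lower.

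The second question was whether the response had changed by 24 h. Slc7a11 was again higher with the stimulus, now in every library, and Nqo1 and Nfe2l2 had joined it. Slc7a11 stood at 44.2, 49.4, 42.9 and 38.1 CPM without and at 256, 197, 129 and 54.6 CPM with the stimulus, in the order of libraries 44, 45, 43 and 46 and of 56, 57, 55 and 58 that is kept below. The log2 fold change was 1.66 ± 0.22 (adjusted p = 8.19e-06). Nqo1 went from 4.64, 4.07, 3.03 and 4.47 CPM to 14.9, 11.1, 7.91 and 4.59 CPM (1.14 ± 0.20, adjusted p = 0.000128), with library 58 just below the highest unstimulated library. Nfe2l2 itself rose from 306, 286, 252 and 202 CPM to 419, 418, 412 and 420.1 CPM (0.69 ± 0.09, adjusted p = 7.84e-06). The 4 stimulated libraries agree within 0.01 (SD) of log2 CPM for this gene, which was the smallest spread of any member under any stimulus and time. These 3 rises held under each of the 3 other scalings, at 1.33 to 1.67 for Slc7a11, 0.81 to 1.36 for Nqo1 and 0.27 to 0.70 for Nfe2l2.

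Of the members that had fallen at 6 h, Gclc, Gsr, Abcc1 and Hmox1 were lower at 24 h too, and Srxn1 was not on the deposited scaling. Gclc fell by 0.78 ± 0.10 (adjusted p = 1.2e-05), Gsr by 0.67 ± 0.15 (0.000951), Abcc1 by 0.68 ± 0.12 (0.000125) and Hmox1 by 1.02 ± 0.23 (0.00094) on the log2 scale, of which only Gclc had no overlap between the libraries. Gclm now fell with them, by 0.65 ± 0.14 (0.000758). These values average over the genotypes. By title, mean Gclm went from 149 to 142 CPM in NFAM1+/+ and from 173 to 74.2 CPM in NFAM1-/- libraries. Gsr went from 135 to 128 and from 165 to 72.7 CPM, and Hmox1 from 495 to 459 and from 754 to 206 CPM. Mean Gclc and Abcc1 were lower in both genotypes. The difference between genotypes in this response did not pass for any member and turned direction by tag. Txnrd1 was 0.26 ± 0.08 higher (adjusted p = 0.00762), a direction that turned to -0.07 with own totals and -0.18 with quantile normalization. Srxn1 differed by 0.03 ± 0.11 (adjusted p = 0.845), or by -0.31 with own totals. This value averages opposite moves by title. Mean Srxn1 went from 139 to 196 CPM in NFAM1+/+ and from 127 to 95.0 CPM in NFAM1-/- libraries. As background, 38.3% of all genes passed as higher and 36.5% as lower at 24 h, against 4 and 5 of the 10 members.

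**Figure D2:**
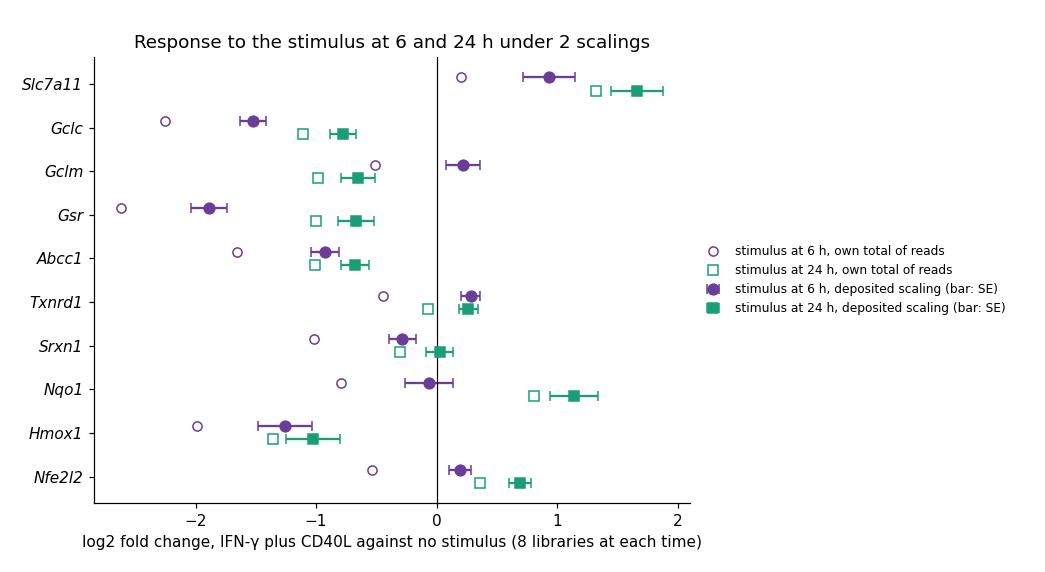
Response to IFN-γ plus CD40L at 6 h (circles) and at 24 h (squares). The horizontal axis is the log2 fold change of 4 stimulated against 4 unstimulated libraries, filled points use the deposited scaling with bars of 1 SE, and open points use the read total of each library as its size. Gclc, Gsr, Abcc1 and Hmox1 lie below 0 in each case, Slc7a11 lies above 0 in each case, and Txnrd1 changes side with the scaling at both times, as do Gclm and Nfe2l2 at 6 h and Srxn1 at 24 h.

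Tested directly, the response differed between the times for 6 members. It was more positive at 24 h for Nqo1 (difference of log2 fold changes 1.20 ± 0.28, adjusted p = 0.00174), Gsr (1.22 ± 0.21, 0.000145), Gclc (0.75 ± 0.15, 0.000523), Nfe2l2 (0.50 ± 0.13, 0.0032) and Slc7a11 (0.73 ± 0.31, 0.0485). It was more negative for Gclm (-0.87 ± 0.20, 0.00143). The call for Slc7a11 was lost when any 1 of 13 of the 16 libraries was left out, with an adjusted p of up to 0.123, and with centring on medians (0.57, adjusted p = 0.12). The counts of 5 higher and 1 lower stand beside 35.2% and 32% of all genes. Averaged over the genotypes, Gclc and Gclm, the subunits of 1 enzyme, thus differed in their timing. On the deposited scaling Gclc fell and Gclm did not pass at 6 h, and by 24 h the fall of Gclc was smaller and Gclm had fallen. In libraries titled NFAM1+/+ mean Gclm went from 88.8 to 87.5 CPM at 6 h and from 149 to 142 CPM at 24 h. In those titled NFAM1-/- it went from 58.8 to 81.3 CPM and from 173 to 74.2 CPM. The latter include libraries 46 and 58, whose labels conflict.

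Time in culture without stimulus had the largest effect on Hmox1, Gclm and Slc7a11. From 6 to 24 h Hmox1 rose to 500.5, 489, 611 and 896 CPM (log2 fold change 1.22 ± 0.23, adjusted p = 0.000316) and Gclm to 144, 154, 139 and 206 CPM (1.14 ± 0.14, 7.92e-06), each above every library at 6 h. Library 46 was the highest for both. Slc7a11 fell by 1.15 ± 0.22 (0.000346) and Nfe2l2 by 0.85 ± 0.09 (1.75e-06) on the log2 scale, each below every library at 6 h. Txnrd1 fell by 0.38 ± 0.08 (0.000708) and Nqo1 by 0.48 ± 0.20 (0.0473), of which the call for Nqo1 was lost without any 1 of 10 libraries (adjusted p up to 0.184). Gclc, Gsr, Abcc1 and Srxn1 differed by -0.17 to 0.14 and did not pass. The 2 members that were higher and 4 that were lower stand beside 34.3% and 30.1% of all genes. All 6 calls held under the 3 other scalings. In the same comparison the summed neutrophil markers went from 72.9 to 229 CPM up to 544 to 942 CPM and the dendritic cell markers from 51.8 to 69.4 CPM up to 143 to 307 CPM, and their part was not tested.

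With stimulus, 5 members were higher at 24 h than at 6 h and 2 were lower, beside 39.7% and 36.7% of all genes. Hmox1 (1.45 ± 0.23, adjusted p = 4.33e-05) and Gsr (1.34 ± 0.15, 1.33e-06) rose most, followed by Nqo1 (0.72 ± 0.20, 0.00438), Gclc (0.58 ± 0.10, 0.000178) and Abcc1 (0.39 ± 0.12, 0.00744, and 0.22 with an adjusted p of 0.11 when centred on medians). Txnrd1 (-0.41 ± 0.08, 0.000322) and Nfe2l2 (-0.35 ± 0.09, 0.00255) fell, but with quantile normalization they stood at 0.11 and 0.15 and with own totals at -0.03 and 0.02, where the median over all genes was 0.41. These time differences share their libraries with the stimulus effects at the same times.

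The genotype difference at 6 h, by which the members were selected, was largest in the cystine importer. In unstimulated libraries the NFAM1-/- mean was lower by 0.87 on the log2 scale for Slc7a11, by 0.84 for Nqo1, by 0.70 for Srxn1, by 0.66 for Abcc1, by 0.60 for Gclm, by 0.58 for Txnrd1 and by 0.53 for Gclc. Srxn1, for example, stood at 187 and 183 CPM in NFAM1+/+ and at 104 and 125 CPM in NFAM1-/- libraries. Hmox1 (-0.31), Nfe2l2 (-0.26) and Gsr (0.02) differed least, and the levels of Hmox1 and Gsr overlapped between the genotypes. Both NFAM1-/- libraries were below both NFAM1+/+ libraries for 8 of 10 members, where 20.3% of all genes had this order. In stimulated libraries at 6 h the differences were smaller for most members, at -0.94 for Slc7a11, between -0.49 and -0.37 for Abcc1, Srxn1, Nqo1, Gsr and Gclc, and between -0.25 and -0.02 for Nfe2l2, Txnrd1, Gclm and Hmox1. That order of the libraries held for 7 members, beside 18.9% of all genes. Since these values chose the members, nothing is read from the counts. The summed level of 10 neutrophil markers was lower in 1 NFAM1-/- library of each stimulus, at 72.9 CPM in library 3 and 88.1 CPM in library 11 against 162 to 361 CPM in the 6 remaining libraries, and its part in these values was not tested.

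The stimulated libraries at 24 h were not those whose values are given as the reason for the selection, but a test in them is not independent of it. Libraries of the different times may share an animal, and the fit takes its spread from libraries of both times. The members were also chosen with earlier results of these data known. By title, all 10 members were lower in NFAM1-/- libraries, with a median log2 difference of -0.91 beside 0.01 over all genes tested. Slc7a11 stood at 256 and 197 CPM in NFAM1+/+ and at 129 and 54.6 CPM in NFAM1-/- libraries, a log2 difference of -1.42 ± 0.31 (adjusted p = 0.0359, limma with Benjamini-Hochberg adjustment). Srxn1 stood at 212 and 180.0 against 114 and 75.9 CPM (-1.07 ± 0.16, adjusted p = 0.00948). The subunits Gclm and Gclc stood at 158 and 126 against 90.3 and 58.1 CPM (-0.96 ± 0.20, 0.0301) and at 64.6 and 54.5 against 46.7 and 31.1 CPM (-0.64 ± 0.15, 0.0468). Abcc1 stood at 209 and 162 against 141 and 92.5 CPM (-0.69 ± 0.17, 0.0495). These 5 members passed as lower and 0 as higher, where 1.12% of all genes passed as lower and 0.986% as higher.

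The other 5 members did not pass. Gsr stood at 149 and 107 against 92.8 and 52.6 CPM (-0.85 ± 0.21, adjusted p = 0.0534), Nqo1 at 14.9 and 11.1 against 7.91 and 4.59 CPM (-1.10 ± 0.28, 0.0609), Txnrd1 at 457 and 411 against 368 and 283 CPM (-0.43 ± 0.11, 0.0651) and Hmox1 at 544 and 375 against 268 and 144 CPM (-1.20 ± 0.32, 0.0687). For these 4 and the 5 that passed, both libraries titled NFAM1-/- were below both titled NFAM1+/+, so 9 of 10 members had this order where 23.2% of all genes did. Nfe2l2 was the exception, with a difference of -0.01 ± 0.13 (adjusted p = 0.996).

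The result turned with the label. By the genotype tags, 9 members were higher in NFAM1-/- libraries and Nfe2l2 differed by -0.01, with a median of 0.48. Slc7a11 then differed by 0.81 ± 0.46 and Srxn1 by 0.41 ± 0.32. No member passed by tag, where 0.0235% of all genes did, and 2 members had an unadjusted p under 0.05. Both NFAM1-/- libraries by tag were below both NFAM1+/+ libraries for 0 members, where 14.5% of all genes had this order. With only libraries 55 and 57, whose labels agree, all 10 members were lower in NFAM1-/-, by a median of 0.35 and by 0.61 ± 0.29 for Slc7a11, 0.66 ± 0.13 for Srxn1, 0.49 ± 0.32 for Nqo1 and 0.48 ± 0.15 for Gclm on the log2 scale. No member passed in this fit, which takes its spread from the groups at 6 h and assumes that the lone libraries vary alike (smallest adjusted p = 0.185, for Srxn1, beside 0.11% of all genes called and 2 members with an unadjusted p under 0.05).

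**Figure D3:**
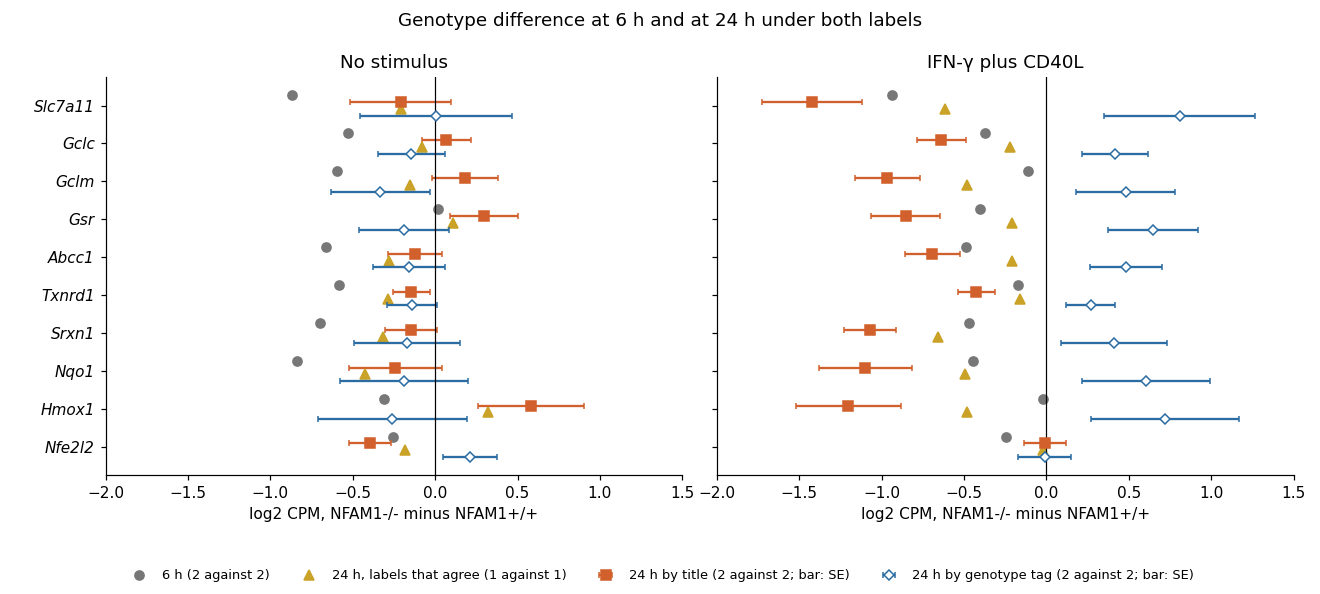
Genotype difference of each gene without (left) and with IFN-γ plus CD40L (right). The horizontal axis is NFAM1-/- minus NFAM1+/+ in log2 CPM. Grey circles are 6 h, squares 24 h by title, triangles the single pair of libraries at 24 h whose labels agree and open diamonds 24 h by genotype tag, and bars are 1 SE. With stimulus at 24 h the squares and triangles of each gene lie below 0 and the diamonds of 9 genes above it.

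The libraries themselves formed a graded series. For the 9 members other than Nfe2l2 the level rose in the order of libraries 58, 55, 57 and 56, an order that 11.5% of all genes tested had, and 11.7% had its reverse. The libraries at both ends, 58 and 56, are 2 of the 4 whose labels conflict. The gap between libraries of 1 titled group was wide. Libraries 55 and 58 differed by a median of 0.62 in log2 CPM over the 10 members, and by 1.24 for Slc7a11, against 0.16 over all genes tested. Libraries 56 and 57 differed by a median of 0.34 over the members against 0.12 over all genes. In the unstimulated groups at 24 h the medians over the members were 0.30 for libraries 43 and 46 and 0.10 for libraries 44 and 45.

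The number of members that passed by title depended on how the spread was estimated and on single libraries. It was 9 with voom weights, 6 with a mean of at least 5 CPM or with 2 reads added, 4 with no filter, quantile normalization or centring on medians, 3 with own totals, 2 with a robust prior variance, and 0 with a prior variance without trend or with only the 8 libraries at 24 h in the fit, where the smallest adjusted p over the members was 0.0648 and 9 members had an unadjusted p under 0.05. Without library 56 or library 58 it was 0, and without library 55 it was 9. Slc7a11 differed by -0.80 without library 58 and by -2.04 without library 55, and the direction by title was negative for 9 members without any 1 library. Markers moved in the same libraries. The summed level of 10 monocyte markers was 8885 and 9771 CPM in the libraries titled NFAM1+/+ and 12095 and 12132 CPM in those titled NFAM1-/-. Cd14, a receptor for lipopolysaccharide and 1 of these markers, went the other way, at 160 and 115 against 60.9 and 23.5 CPM. Ccr2 was at 187 and 198 against 259 and 469 CPM, and Lyz2 at 4827 and 5471 against 7390 and 7090 CPM. Ly6c2 and Itgam were also higher in both libraries titled NFAM1-/-, and the remaining monocyte markers overlapped. Their part in the difference was not tested.

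**Figure D4:**
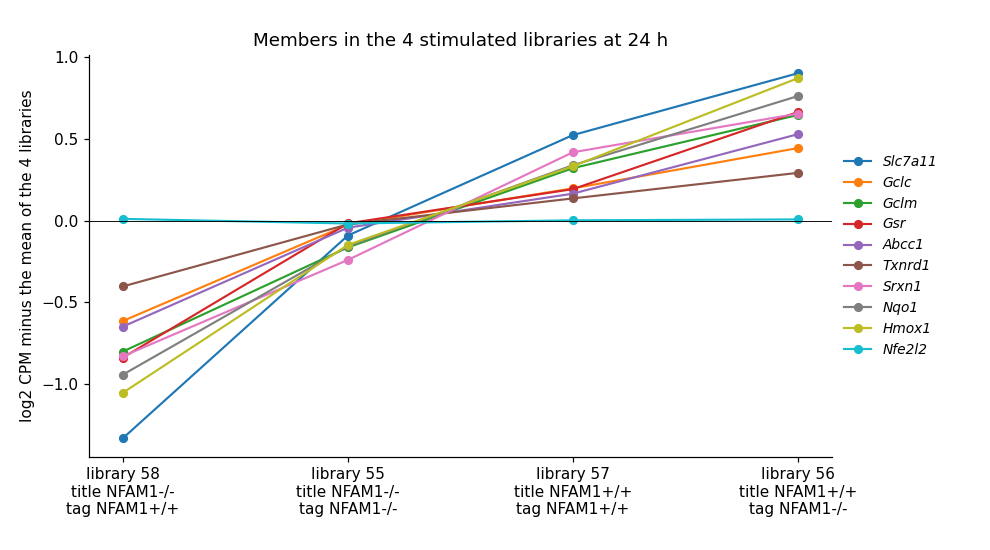
The 10 genes in the 4 stimulated libraries at 24 h, placed in the order that most members followed. The vertical axis is log2 CPM minus the mean of the 4 libraries, each line is 1 gene, and the labels give the genotype of the title and of the tag. For 9 genes the values rise from library 58 to library 56, and Nfe2l2 is flat.

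Without stimulus at 24 h the direction was mixed. By title, 6 of 10 were lower in NFAM1-/- libraries, the median was -0.13, and 0 passed where 0.954% of all genes did. Nfe2l2 alone had an unadjusted p under 0.05 (-0.39 ± 0.13, adjusted p = 0.222). Both NFAM1-/- libraries were below both NFAM1+/+ libraries for 3 members, Slc7a11, Txnrd1 and Nfe2l2, where 23.5% of all genes had this order. By tag that held for 4 members, beside 11.7% of all genes, with a median of -0.17. Hmox1 was higher by title in both NFAM1-/- libraries, at 611 and 896 against 500.5 and 489 CPM (0.58 ± 0.32, adjusted p = 0.56). Slc7a11, at 42.9 and 38.1 against 44.2 and 49.4 CPM, differed by -0.21 ± 0.31 (adjusted p = 0.896). By tag the members differed by -0.33 to 0.21 and in the single pair of libraries whose labels agree, 43 and 45, by -0.43 to 0.32, and none passed in either case (0 and 2 members had an unadjusted p under 0.05). The summed dendritic cell markers were at 265 to 307 CPM in the libraries titled NFAM1-/- and at 143 to 160 CPM in those titled NFAM1+/+. The summed B cell markers were at 192 to 198 against 127 to 135 CPM, mostly from Ighm, at 179 and 191 against 118 and 112 CPM. Cd79b went the other way, at 11.9 and 5.96 against 16.4 and 13.8 CPM, and Cd79a overlapped. The part of these markers was not tested.

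Over both stimuli at 24 h the mean genotype difference by title was negative for all 10 members, and 1 passed, Srxn1 (-0.61 ± 0.11, adjusted p = 0.0262), where 1.29% of all genes did. By tag all 10 were positive and none passed. The call for Srxn1 was lost without any 1 of libraries 43, 44, 45, 56 and 58 (adjusted p up to 0.106). Whether the genotype difference was larger with than without the stimulus was tested in a comparison added after the values were seen. No member passed (0.54% of all genes did), 8 had an unadjusted p under 0.05, and the values were -1.78 ± 0.45 for Hmox1 (adjusted p = 0.0992), -1.15 ± 0.28 for Gclm (0.0876), -1.15 ± 0.29 for Gsr (0.102) and -0.92 ± 0.22 for Srxn1 (0.0856).

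The wider pathway was read from 9 lists of genes around the members, with 147 of 167 listed genes in the table and tested. At 6 h 58 of them rose and 66 fell with the stimulus, and at 24 h 52 rose and 70 fell. These were 39.5% and 44.9% of the list genes at 6 h, near the 35% and 43.3% of all genes, and 35.4% and 47.6% at 24 h beside 38.3% and 36.5%. The counts per list are read against the same shares. Most genes of the amino acid response driven by ATF4, which is also known to act on Slc7a11, rose on the deposited scaling. Of 18 tested, 15 were higher and 0 lower at 6 h, with a median of 1.06 beside -0.13 over all genes, and 14 were higher and 2 lower at 24 h, with a median of 0.91 beside 0.01. With own totals 10 were higher and 5 lower at 6 h, and 12 and 4 at 24 h. The part of ATF4 in the response of Slc7a11 was not tested. The list of NRF2 control and partners mixes Keap1, which holds NRF2 low, with small MAF genes that pair with it. On the deposited scaling at 6 h Keap1 (1.82), Mafk (3.17) and Maff (2.75) were higher and Mafg (-0.99) lower. In this list 7 of 13 were higher and 2 lower at 6 h, which turned to 4 and 8 with own totals, and 9 were higher and 1 lower at 24 h. NADPH supply went the other way, with 1 of 13 higher and 10 lower at 6 h and 2 higher and 9 lower at 24 h, and medians of -0.73 and -0.74. Idh1, the cytosolic isocitrate dehydrogenase that makes NADPH, had the largest fall of that list, from a mean of 153 to 12.6 CPM at 6 h (-3.60 ± 0.09, adjusted p = 1.43e-13). Glutathione S-transferases (5 of 15 higher and 8 lower at 6 h, 2 and 10 at 24 h) and other genes of detoxification and oxidant removal (7 of 26 and 15, then 5 and 18) fell more often than they rose, while the list of glutathione synthesis and use had 7 of 19 higher and 11 lower, then 6 and 10. Thioredoxin and peroxiredoxin genes had 6 of 18 higher and 9 lower, then 7 and 8, and heme and iron genes 4 of 16 higher and 9 lower, then 2 and 10. With own totals 1 NADPH gene was higher and 12 lower at 6 h, 3 and 10 S-transferases, 5 and 19 other detoxification genes, 4 and 12 glutathione genes, 4 and 13 thioredoxin and peroxiredoxin genes, and 2 and 14 heme and iron genes. At 24 h these counts were 1 and 10, 2 and 10, 4 and 22, 5 and 12, 5 and 10, and 2 and 13.

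The list of oxidant producers, in which Acod1 was also counted, held the largest rise at each time. Of its 9 genes 6 were higher and 2 lower at 6 h, or 3 and 4 with own totals, and 5 were higher and 2 lower at 24 h. Nos2, the inducible nitric oxide synthase, went from a mean of 0.148 to 832 CPM at 6 h and from 0.479 to 1543 CPM at 24 h, and Acod1, which makes itaconate, an electrophile known to modify Keap1, from 184 to 6050.4 CPM (5.06 ± 0.14, adjusted p = 3.51e-13) and from 59.4 to 4909 CPM (6.54 ± 0.14, 5.16e-14). Nox1, an NADPH oxidase, went from 0.0717 to 1.81 CPM at 6 h, and Stc2, a secreted glycoprotein of the ATF4 list, from 0.0234 to 2.41 CPM at 24 h. Besides Idh1, the largest falls were in genes of low level. Gsta4, a glutathione S-transferase, went from 1.61 to 0.0276 CPM and the aldehyde oxidase Aox1 from 0.462 to 0.0390 CPM at 6 h. The transporter Abcc2 went from 2.65 to 0.0816 CPM, the glutathione hydrolase Ggt5 from 4.02 to 0.211 CPM and the aldo-keto reductase Akr1b8 from 2.31 to 0.147 CPM at 24 h.

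Time alone moved the ATF4 list down and the heme and iron list up in unstimulated cells. Of 18 ATF4 genes 2 were higher and 14 lower at 24 h (median -1.08 beside 0.04), including Psat1, an enzyme of serine synthesis, which went from 45.2 to 12.0 CPM (-1.93 ± 0.12, adjusted p = 1.34e-08). Slc7a11 fell in the same comparison, and a link was not tested. Of 16 heme and iron genes 13 were higher and 1 lower (median 0.54), in the comparison in which Hmox1 rose. The transporter Abcc3 went from 3.36 to 28.1 CPM (3.10 ± 0.24, 8.54e-08) and the carbonyl reductase Cbr3 from 2.54 to 15.8 CPM (2.72 ± 0.26, 6.87e-07), while Ggt5 went from 0.436 to 4.02 CPM, Gsta4 from 1.61 to 0.0351 CPM and the methionine sulfoxide reductase Msrb3 from 1.36 to 0.246 CPM. With stimulus, 12 of 16 heme and iron genes were higher and 3 lower at 24 h, and 4 of 18 ATF4 genes higher and 10 lower, or 7 and 8 with own totals. Hagh, which hydrolyses a glutathione thioester, went from 1.87 to 15.9 CPM (3.12 ± 0.14, 1.62e-10), the secreted superoxide dismutase Sod3 from 1.51 to 10.9 CPM and Aox1 from 0.0390 to 0.237 CPM, whereas Psat1 went from 113 to 11.6 CPM (-3.33 ± 0.12, 2.88e-11), Nox1 from 1.81 to 0.0488 CPM and Abcc2 from 0.699 to 0.0816 CPM.

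**Figure D5:**
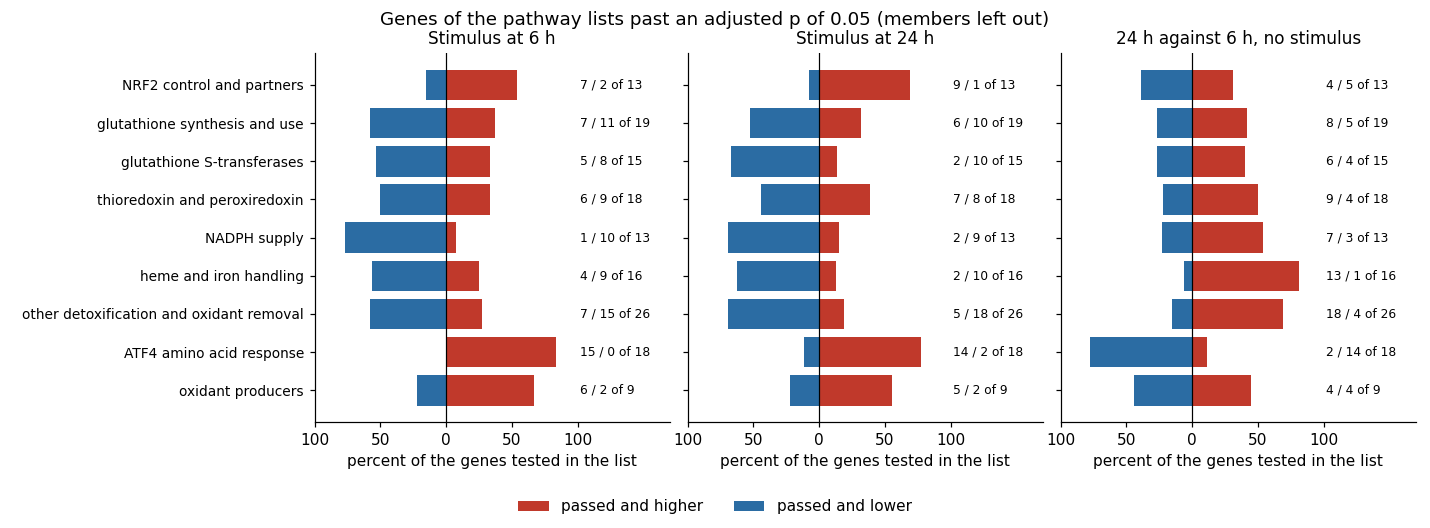
Share of each pathway list that passed an adjusted p of 0.05 with the stimulus at 6 h, with the stimulus at 24 h, and from 6 to 24 h without stimulus. The horizontal axis is the percent of the genes tested in the list, higher to the right and lower to the left, and the numbers give genes higher, lower and tested. ATF4 genes were mostly higher with the stimulus and lower with time, and NADPH supply was mostly lower with the stimulus, also with own totals, whereas NRF2 control at 6 h turned to 4 higher and 8 lower.

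In the stimulated libraries at 24 h by title, 8 of the 147 list genes were lower in NFAM1-/- and 4 higher, or 5.44% and 2.72% beside 1.12% and 0.986% of all genes. All 12 calls were lost when only the 8 libraries at 24 h were fitted. The lower ones were Prdx1, a peroxiredoxin of the kind that Srxn1 repairs, the prostaglandin reductase Ptgr1, the biliverdin reductase Blvrb, which acts after Hmox1, the ferritin heavy chain Fth1, the metal transporter Slc11a1, the esterase Esd, which releases glutathione, Pgd of the pentose phosphate pathway and the transcription factor Atf3. Prdx1 stood at 2306 and 1616 CPM in libraries titled NFAM1+/+ and at 1072 and 672 CPM in those titled NFAM1-/- (-1.19 ± 0.20, adjusted p = 0.0156), and Ptgr1 at 16.5 and 10.5 against 6.83 and 4.44 CPM (-1.26 ± 0.23, 0.0216). All 8 lower genes followed the order of the members over the 4 libraries. The 6 lower genes other than Prdx1 and Ptgr1 differed by -0.66 to -0.87. The higher ones were Nqo2, a quinone reductase related to Nqo1, at 1.90 and 2.48 against 3.83 and 6.51 CPM (1.20 ± 0.23, 0.0216), Phgdh of serine synthesis, at 8.42 and 10.9 against 19.8 and 19.9 CPM (1.05 ± 0.19, 0.0206), Idh2 (0.80) and Akr1b3 (0.43). By tag all 12 turned direction and none passed. In the single pair of libraries whose labels agree all 12 kept the direction of the title. That pair is part of the comparison by title that picked these genes, so its direction is no separate support. Without stimulus 7 list genes passed and all were lower by title (4.76%, beside 0.954% of all genes in either direction). By tag 5 of these turned direction and none passed. In the pair of libraries 43 and 45, again part of the comparison that picked them, all 7 kept the direction of the title. Among the 7 were Acod1, at a mean of 86.0 against 32.9 CPM (-1.43 ± 0.20, adjusted p = 0.0057, 0.43 by tag and -0.997 in the single pair), Chac2, a glutathione-degrading enzyme, at 1.70 against 0.578 CPM (-1.61 ± 0.26, 0.0105, 0.45 by tag and -1.16 in the single pair), and Gstt1, which was close to absent at 0.0950 against 0.00577 CPM.

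The likeness of patterns was measured as the mean absolute difference of log2 CPM over the 8 groups, each gene centred on its own mean. Among the members the closest pairs were Txnrd1 with Nfe2l2 (0.19) and Gclc with Abcc1 (0.19), and the most distant was Slc7a11 with Gsr (1.29). Over the whole table, the genes most like Nqo1 were Sqstm1 (0.16), which encodes an adaptor that binds Keap1, P4ha1 (0.22) and Fth1 (0.22). Those most like Hmox1 were Creg1 (0.15), the heme exporter Flvcr1 (0.24) and Abcc5 (0.24), and those most like Slc7a11 were Bahcc1 (0.30), Flrt3 (0.32) and Zhx2 (0.32). These are descriptions over 8 groups that share stimulus and time.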

How the data were processed

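RNA was sequenced from 16 libraries of mouse monocytes. The authors deposited log2 CPM per gene. The labels list FastQC, STAR, edgeR and limma and the build GRCm39, without versions, and the methods name Rsubread for counting. The values take the form used by voom, with 0.5 added to the reads, and undoing it gave whole reads (within 0.05 reads) for 100% of the low values checked. A filter of 1 CPM in 2 or more libraries kept 12782 of 13085 genes, which were fitted with limma 3.58.1 (R 4.3.3, trend in the prior variance) on the deposited log2 values with 8 groups and 8 residual degrees of freedom, and p-values were adjusted over all genes tested by the Benjamini-Hochberg method at a threshold of 0.05. "Passed", "rose" and "fell" refer to this threshold. Intervals cover the spread between libraries, and depth was not limiting for the members.

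The members and the pathway and marker lists were chosen with earlier results of these data known. List genes were named where they passed, changed at least 2-fold and did not overlap between groups (at most 3 in each direction per comparison). The list genes that passed by genotype at 24 h, and Cd14, Prdx1 and the other list genes named outside this rule, were named after their values were seen. Alternatives were other filters, scalings, prior variances, voom weights, 2 reads added, fits of 1 time, the genotype tag, the 12 libraries whose labels agree, and each library left out. Count models were not run. The voom weights were computed from the reads recovered from the deposited log2 values. Promoters and coordinates are from RefSeq GRCm38.p6, not the build of the authors. Dates stand in place of 17 symbols. The dose of IFN-γ differs between labels and methods, and no comparison depends on it.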

Additional observations from a re-analysis of the deposited data

Results flagged for a closer look

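The stimulus effect of 6 members differed between 24 and 6 h by a test of the difference itself (limma interaction over 12782 genes, Benjamini-Hochberg adjusted). The effect at 24 h minus that at 6 h was 0.73 on the log2 scale for Slc7a11, 0.75 for Gclc, -0.87 for Gclm, 1.20 for Nqo1, 1.22 for Gsr and 0.50 for Nfe2l2. Over all genes the median of this difference was 0.04, and it was 0.44 with the read total of a library as its size, 0.14 with quantile normalization and -0.11 with centring on medians. The signs of the 6 held under each of these scalings.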

How the results depend on the processing

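No paired analysis was possible because the labels give each library its own number and no pairing, and although some libraries probably share an animal, the sources used here do not say which. The 32 of 35 member calls in the stimulus and time comparisons that are not named in the report as lost held without any 1 library. The libraries at 24 h left in a group of 1 are assumed to vary like the other groups.

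With own totals of reads the stimulus effect at 6 h was -0.51 for Gclm, -0.45 for Txnrd1 and -0.54 for Nfe2l2, at 24 h -0.31 for Srxn1 and -0.0691 for Txnrd1, the change of response 0.38 for Txnrd1, and 24 against 6 h with stimulus 0.0187 for Nfe2l2. With quantile normalization these were -0.0914, -0.68 and -0.80 (and 0.20 for Nqo1), then -0.29 and -0.18, 0.51, and 0.15 (and 0.11 for Txnrd1). Centring gave 0.11 for Nqo1 at 6 h, and the 12 libraries with agreeing labels gave 0.0808 for the change of response of Txnrd1. The share of called genes that were higher with the stimulus was 44.7% at 6 h and 51.2% at 24 h, and 21.5% and 31.8% with own totals. For the change of response it was 52.4% and 70.1%, and for time with stimulus 52.0% and 69.3%. Nfe2l2 by genotype with stimulus at 24 h was 0.005 with quantile normalization and 0.0257 with own totals.

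By tag, the genotype differences without stimulus at 24 h were 0.0053 for Slc7a11, -0.14 for Gclc, -0.33 for Gclm, -0.26 for Hmox1, -0.19 for Gsr and 0.21 for Nfe2l2. With stimulus they were 0.81 for Slc7a11, 0.41 for Srxn1, 0.42 for Gclc, 0.48 for Gclm, 0.48 for Abcc1, 0.60 for Nqo1, 0.72 for Hmox1, 0.27 for Txnrd1 and 0.65 for Gsr. Over both stimuli they were 0.41 for Slc7a11, 0.12 for Srxn1, 0.14 for Gclc, 0.0741 for Gclm, 0.16 for Abcc1, 0.21 for Nqo1, 0.23 for Hmox1, 0.0638 for Txnrd1, 0.23 for Gsr and 0.10 for Nfe2l2. With against without stimulus they were 0.80 for Slc7a11, 0.58 for Srxn1, 0.56 for Gclc, 0.81 for Gclm, 0.65 for Abcc1, 0.79 for Nqo1, 0.98 for Hmox1, 0.41 for Txnrd1, 0.83 for Gsr and -0.22 for Nfe2l2. With the 12 agreeing libraries the differences without stimulus were -0.0777 for Gclc and -0.15 for Gclm, and with against without stimulus 0.075 for Abcc1 and 0.12 for Txnrd1.

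Without stimulus at 24 h 122 genes passed by title, 2 by tag, 4 with the agreeing libraries, 74 with only the libraries at 24 h, 22 with a prior variance without trend, 200 with quantile normalization and 232 with voom weights. With stimulus 269 passed by title, 3 by tag, 14 with the agreeing libraries, 0 with only the libraries at 24 h (2169 at an unadjusted p under 0.05, limma) and 5 without trend, and the members passing were 5, 0, 0, 0 and 0, then 2 with a robust prior variance, 3 with own totals and 9 with voom weights. Over both stimuli these were 165, 2, 13, 21 and 1 genes and 1, 0, 0, 0 and 0 members. With against without stimulus they were 69, 3, 1, 0 (1721 at an unadjusted p under 0.05) and 4 genes, and 127 with quantile normalization.

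With each library left out in turn, the stimulus effect ran from -0.20 to 0.0725 for Nqo1 at 6 h and from -0.12 to 0.17 for Srxn1 at 24 h, and the change of response of Txnrd1 from -0.12 to 0.0744. Without stimulus at 24 h the genotype difference ran from -0.31 to 0.0103 for Srxn1, -0.0161 to 0.15 for Gclc, -0.10 to 0.47 for Gclm, -0.26 to 0.0219 for Abcc1 and -0.52 to 0.0405 for Nqo1, over 11 to 169 genes passing. With stimulus it ran from -0.0222 to 0.006 for Nfe2l2, over 1 to 577 genes and 0 to 9 members passing. Over both stimuli 17 to 467 genes and 0 to 8 members passed, and with against without stimulus 1 to 201 genes and 0 to 7 members. The cause of these changes was not tested.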
